A study of Mus musculus with 6 samples.

Results

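The 3 retinoic acid receptor genes (Rara, Rarb and Rarg) and the 3 retinoid X receptor genes (Rxra, Rxrb and Rxrg) were read in whole pancreas of mouse embryos at e16.5. The members were chosen by symbol alone: 6 of the 54735 gene symbols in each count table, and all 6 were among the 19070 genes that passed the filter on low counts. The 3 RARdn pancreata carried Neurog3:cre together with the RARdn allele in the form labelled RARdnfl/fl, and the 3 control pancreata carried Neurog3:cre alone, so the driver was common to every sample. Both groups had a mixed C57Bl6/129SV background. RARdn commonly stands for a dominant-negative receptor for retinoic acid, a reading that the labels leave unstated. Neurog3 marks endocrine progenitors, a minority of the cells of a pancreas at this stage, while the RNA came from the whole organ, cells without an active driver included. Whether animals were pooled or shared a litter is not given in the sources used here, and the p-values below therefore speak only of how these 6 samples vary, in part perhaps for technical reasons.

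Retinoic acid receptors (RARs) are nuclear receptors that bind retinoic acid, the active form of vitamin A, and sit on DNA as heterodimers with retinoid X receptors (RXRs). Without ligand the dimer holds corepressors on its target genes, and with ligand it exchanges them for coactivators. RXRs also pair with the receptors for thyroid hormone, vitamin D, oxysterols and fatty acids, so they are not dedicated to retinoic acid. In the embryo retinoic acid from the mesoderm is needed to form the pancreatic bud, and it later bears on endocrine differentiation.

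The receptor gene best known as a direct target of its own ligand is Rarb, whose promoter holds a response element made of a direct repeat of a hexamer with a spacer of 5 bases, called DR5. RefSeq promoter windows (GRCm38.p6), each running from 250 bases before to 50 bases after a transcript start, were available for all 6 genes, 13 windows in all. They were searched on both strands for direct repeats of the hexamer AGGTCA, the variant AGTTCA, the variant GGGTCA and the variant GGTTCA, in any combination, with spacers of 1, 2 or 5 bases (DR1, DR2 and DR5). The only match was a DR5 in the Rarb window, from base -53 to base -37 relative to the start. Over 32851 windows of the same length, 0.0974% held a DR5, 0.268% a DR2 and 0.222% a DR1. The absence of a match says only that these letters are not in these windows. The Rarb window is shown because it carries the element, in capitals, and the first listed windows of Rara and Rarg because these were the receptor genes whose transcripts differed.
Rarb, chr14:16575427-16575726, minus strand: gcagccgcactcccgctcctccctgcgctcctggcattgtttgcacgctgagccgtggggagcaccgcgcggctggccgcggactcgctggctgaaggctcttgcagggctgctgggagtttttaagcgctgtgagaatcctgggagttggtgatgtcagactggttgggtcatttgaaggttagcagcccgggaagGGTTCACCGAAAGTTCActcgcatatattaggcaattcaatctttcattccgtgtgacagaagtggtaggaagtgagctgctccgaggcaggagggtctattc
Rara, chr11:98937446-98937745, plus strand: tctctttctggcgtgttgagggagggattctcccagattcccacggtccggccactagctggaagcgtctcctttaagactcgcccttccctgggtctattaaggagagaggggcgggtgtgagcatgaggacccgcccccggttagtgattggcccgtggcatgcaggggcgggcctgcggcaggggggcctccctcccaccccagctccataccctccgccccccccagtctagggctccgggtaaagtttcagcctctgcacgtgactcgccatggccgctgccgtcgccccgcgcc
Rarg, chr15:102257473-102257772, minus strand: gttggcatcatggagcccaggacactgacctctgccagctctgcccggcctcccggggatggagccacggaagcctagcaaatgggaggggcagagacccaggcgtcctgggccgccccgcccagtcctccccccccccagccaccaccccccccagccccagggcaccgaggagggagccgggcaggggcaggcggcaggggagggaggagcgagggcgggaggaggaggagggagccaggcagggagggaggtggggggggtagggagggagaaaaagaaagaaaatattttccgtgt

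Gene counts totalled 35256531 to 52015498 reads in the RARdn libraries and 38572573 to 44735721 in the control libraries. Reads outside annotated features made up 2.90% to 5.30% of all reads in the RARdn and 7.60% to 8.99% in the control libraries, and 23995 to 27147 genes were detected in RARdn and 27828 to 28517 in control libraries. Neither range overlapped between the groups, and the part of these differences in the results below was not tested. The acinar genes Cpa1 (4660 to 20443 reads per 1000000 counted reads, CPM, in RARdn and 14428 to 16071 CPM in control pancreas) and Ptf1a were present in all 6 libraries, as were 14 of 14 acinar and 16 of 16 endocrine markers. Acinar transcripts varied among the RARdn libraries, summing to 35698, 135986 and 197592 CPM in RARdn 1, 2 and 3, against 109193 to 120963 CPM in the controls. Xist, made from the inactive X chromosome, was at 0.103 to 0.230 CPM in the RARdn libraries and at 1158, 0.312 and 1118 CPM in control 1, 2 and 3, so the sexes were not balanced. Levels below are CPM after TMM scaling (a factor per library that allows for differences in composition), unless another scale is named.

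Rara and Rarg were each about 1.4-fold higher in RARdn pancreas, while Rarb and the 3 RXR genes were not called. Of the 6 receptor genes, 2 rose and none fell at an adjusted p under 0.05 (edgeR quasi-likelihood test, Benjamini-Hochberg over 19070 genes), where 4.02% of all genes tested were called and 1.37% were called higher and 2.65% lower. DESeq2 and limma-voom each called the same 2 receptor genes, where DESeq2 called 9.58% of all genes and limma-voom 4.17%. The median log2 fold change of the 6 receptor genes was 0.17, against 0.00051 over all genes tested. In bulk tissue, more transcript per cell and more cells of a type that makes it cannot be told apart.

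Rara encodes the RAR that is the most widely expressed of the family. It lies on chromosome 11 (98927818 to 98974942, plus strand, GRCm38), and within it the annotation places the small nuclear RNA gene Gm22061, which shares no exon base with it. Its level was 43.7, 46.4 and 46.9 CPM in RARdn 1, 2 and 3, against 33.9, 33.03 and 31.3 CPM in control 1, 2 and 3. All 3 RARdn libraries lay above all 3 controls, which was also true of 13.9% of the genes tested. The means were 45.7 ± 1.70 CPM in RARdn and 32.8 ± 1.29 CPM in control pancreas (SD, n = 3 each), a 1.39-fold difference with a 95% interval of 1.21 to 1.60 (log2 0.48, SE 0.089, edgeR adjusted p = 0.0256).

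Rarg, the RAR gene known for its expression in precartilage, skin and other mesenchymal and epithelial tissue of the embryo, lies on chromosome 15 (102234938 to 102257517, minus strand). No other annotated gene overlaps it. It was at 28.2, 27.9 and 24.6 CPM in the RARdn libraries, against 20.6, 18.0 and 18.2 CPM in the controls. The groups again did not overlap, with control 1 the highest control and RARdn 3 the lowest RARdn library. The means were 26.9 ± 2.02 CPM in RARdn and 18.9 ± 1.44 CPM in control pancreas (SD, n = 3 each), a 1.42-fold difference with a 95% interval of 1.19 to 1.70 (log2 0.51, SE 0.11, edgeR adjusted p = 0.0438).

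Rarb lies on chromosome 14 (16430839 to 16819156, minus strand). It was at 2.99, 2.94 and 1.78 CPM in RARdn 1, 2 and 3, against 3.29, 2.87 and 2.15 CPM in control 1, 2 and 3. The groups overlapped, and within each group library 3 was the lowest. These levels rest on 54 to 175 reads per RARdn library and 93 to 129 per control library. The fold difference was 0.934 with a 95% interval of 0.602 to 1.45 (log2 -0.10, SE 0.28, edgeR adjusted p = 0.870), so the data allow a change in either direction within that interval. Of its 5265 exon bases, 1793 at its 3′ end (34.1%) are shared with exons of Top2b, a topoisomerase gene on the other strand, and 227 others with the antisense gene Gm48162. Since the strand setting of the counting is not stated, reads over the shared bases may have been set aside as ambiguous or credited to either gene. Top2b itself was at 139, 105 and 115 CPM in the RARdn libraries, against 124, 130 and 121 CPM in the controls (edgeR adjusted p = 0.795), while Gm48162 had 1 read in RARdn 3 and none in the other libraries.

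**Figure D1:**
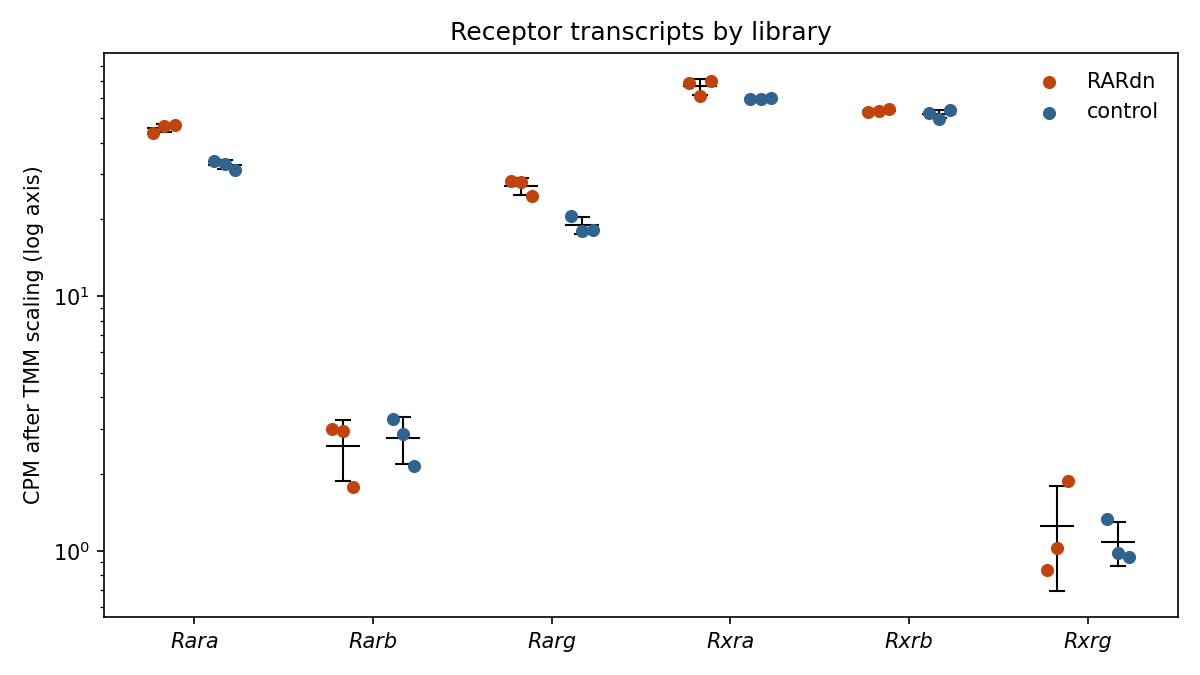
Level of each receptor gene in each library, in CPM after TMM scaling on a log axis, with RARdn libraries left of controls; the black bars give the mean and SD of 3 libraries. Rara and Rarg show RARdn libraries above every control, whereas the groups of Rarb, Rxrb and Rxrg overlap.

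The RXR genes were closer between the groups. Rxra, the main RXR of many epithelia including liver, lies on chromosome 2 (27676440 to 27762957, plus strand) and was at 68.7, 60.8 and 69.7 CPM in the RARdn libraries, against 59.1, 59.2 and 60.0 CPM in the controls. The groups did not overlap on this scale, with RARdn 2 close to the controls and the other RARdn libraries further above them. The fold difference was 1.12 with a 95% interval of 0.966 to 1.29 (log2 0.16, SE 0.092, edgeR adjusted p = 0.345), and the gene was not called. With CPM over total gene counts, without the TMM factor, Rxra was at 83.8, 59.3 and 60.1 CPM in RARdn 1, 2 and 3, against 58.7, 59.4 and 58.5 CPM in the controls, and the groups overlapped.

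Rxrb, the RXR gene expressed in nearly all tissues, lies on chromosome 17 (34031812 to 34038399, plus strand). It was at 52.7, 53.2 and 54.3 CPM in RARdn pancreas, against 52.5, 49.6 and 53.5 CPM in control pancreas. It had the narrowest interval of the 6 genes, a fold difference of 1.03 with a 95% interval of 0.901 to 1.18 (log2 0.042, SE 0.085, edgeR adjusted p = 0.810).

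Rxrg, best known from muscle and parts of the nervous system, lies on chromosome 1 (167598384 to 167639623, plus strand). It was at 0.838, 1.03 and 1.88 CPM in RARdn 1, 2 and 3, against 1.33, 0.980 and 0.949 CPM in control 1, 2 and 3. RARdn 3 stood highest, and the other RARdn libraries lay among or below the controls. With 49 to 57 reads per RARdn library and 41 to 51 per control library, the interval ran from 0.629-fold to 2.03-fold (log2 0.18, SE 0.37, edgeR adjusted p = 0.821). None of the 3 RXR genes had an unadjusted p under 0.05, and DESeq2 and limma-voom called none of them.

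**Figure D2:**
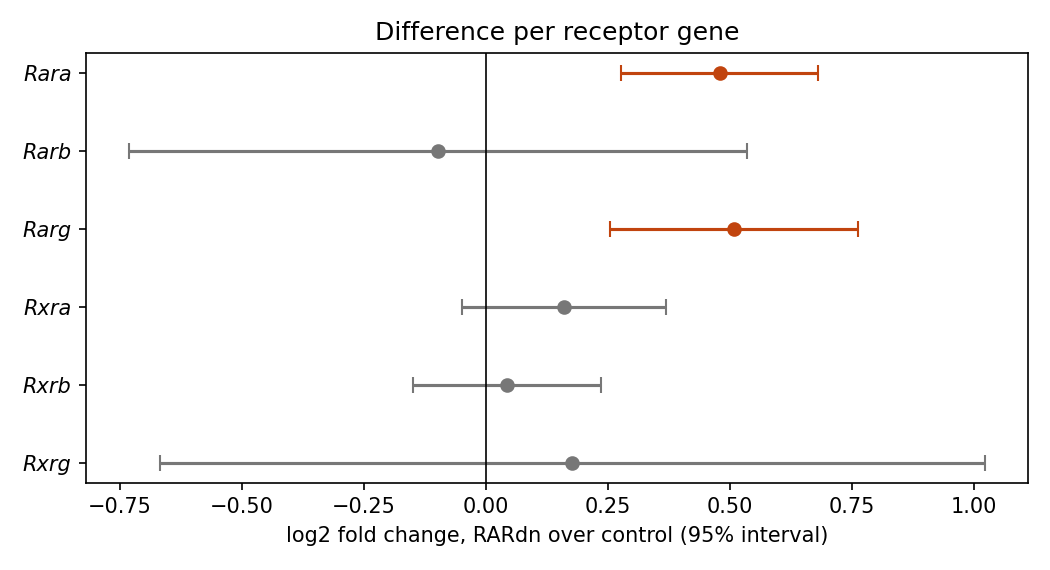
Log2 fold change of each receptor gene, RARdn over control, with its 95% interval from the edgeR fit; orange marks adjusted p under 0.05. The intervals of Rara (0.28 to 0.68) and Rarg (0.25 to 0.76) lie above 0, and those of Rarb and Rxrg are the widest.

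To set the receptor types against each other, levels were divided by the merged length of each gene's annotated exons, 4365 bases for Rara, 5265 for Rarb, 4261 for Rarg, 5462 for Rxra, 3973 for Rxrb and 2297 for Rxrg. On this scale Rxrb was the most abundant, at 13.4 ± 0.214 CPM per kb in RARdn and 13.1 ± 0.510 CPM per kb in control pancreas. Rxra followed at 12.2 ± 0.895 and 10.9 ± 0.0944 CPM per kb in RARdn and control pancreas. Rara came next at 10.5 ± 0.391 in RARdn and 7.50 ± 0.295 in control pancreas, and then Rarg at 6.31 ± 0.473 in RARdn and 4.44 ± 0.339 in control pancreas. The order Rxrb, Rxra, Rara, Rarg held in all 6 libraries.

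Rarb, at 0.488 ± 0.130 CPM per kb in RARdn and 0.526 ± 0.109 in control pancreas, and Rxrg, at 0.543 ± 0.241 in RARdn and 0.473 ± 0.0924 in control pancreas, were lowest and did not differ from each other beyond their spread. Rarb was above Rxrg in 2 of 3 RARdn and 2 of 3 control libraries. Among 15042 protein-coding genes tested, Rxrb stood above 80.6% of them in RARdn and 80.1% in control pancreas, and Rarb above 15.0% in RARdn and 17.2% in control pancreas.

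The order at the top depends on which length is used. With the merged coding length, Rxra was at 47.4 ± 3.49 CPM per kb in RARdn and 42.4 ± 0.368 in control pancreas, and Rxrb at 34.0 ± 0.541 and 32.99 ± 1.29 CPM per kb in RARdn and control pancreas, so Rxra came first in all 6 libraries. With the longest annotated transcript, Rxrb came first in all 6 libraries and Rara and Rxra exchanged ranks among libraries. Rarg was the fourth and Rarb and Rxrg were last under each length tried.

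Within the RAR pool, the sum of the 3 RAR genes per kb, Rara made up 58.2%, 59.9% and 63.8% in RARdn 1, 2 and 3, against 58.7%, 61.3% and 60.6% in control 1, 2 and 3. Rarg made up 36.6% ± 2.15 in RARdn and 35.6% ± 1.19 in control pancreas. For neither gene did the groups separate (2-sided exact permutation p = 0.9 for Rara and 0.5 for Rarg), so the shares of Rara and Rarg differed by less than the spread between libraries while both levels were higher. The Rarb share was 3.30%, 3.15% and 2.003% in RARdn 1, 2 and 3, against 4.73%, 4.42% and 3.45% in control 1, 2 and 3. All RARdn values lay below all control values (2-sided exact permutation p = 0.1, the smallest that 3 against 3 allows, and 0.35 after Benjamini-Hochberg adjustment over the 7 shares and ratios tested). The Rarb level itself overlapped between the groups, and a share falls when the rest of its pool is higher. Reads over the exon bases that Rarb shares with Top2b could not be set apart in these counts.

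Within the RXR pool, Rxra made up 46.5% ± 1.75 in RARdn and 44.6% ± 0.915 in control pancreas, and Rxrb 51.5% ± 1.90 in RARdn and 53.5% ± 0.821 in control pancreas (2-sided exact permutation p = 0.2 for each, adjusted 0.35). Rxrg made up 2.06% ± 0.835 in RARdn and 1.94% ± 0.368 in control pancreas (exact permutation p = 0.9). The groups overlapped for all 3 shares.

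The RAR pool was smaller than the RXR pool in every library, and it was larger relative to the RXR pool in RARdn pancreas. It summed to 17.2, 17.7 and 16.9 CPM per kb in RARdn 1, 2 and 3, against 13.2, 12.3 and 11.9 CPM per kb in control 1, 2 and 3. The RXR pool summed to 26.2, 24.98 and 27.3 CPM per kb in the RARdn libraries, against 24.6, 23.8 and 24.9 CPM per kb in the controls. The RAR pool per RXR pool, a ratio within a library that no scaling of the library can move, was 0.657, 0.710 and 0.618 in RARdn pancreas, against 0.537, 0.520 and 0.477 in control pancreas. The groups did not overlap (means 0.662 ± 0.0461 in RARdn and 0.511 ± 0.0313 in control pancreas, 2-sided exact permutation p = 0.1, the smallest possible, adjusted 0.35). The same counts with no division by length, or divided by other lengths, 1 of them added after seeing the data, also gave groups that did not overlap. The means were 0.592 to 0.681 in RARdn and 0.462 to 0.525 in control pancreas. These settings reweight the same counts and are not independent of each other. Rara and Rarg made up nearly all of the RAR pool, so the ratio is not independent of their own differences either.

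**Figure D3:**
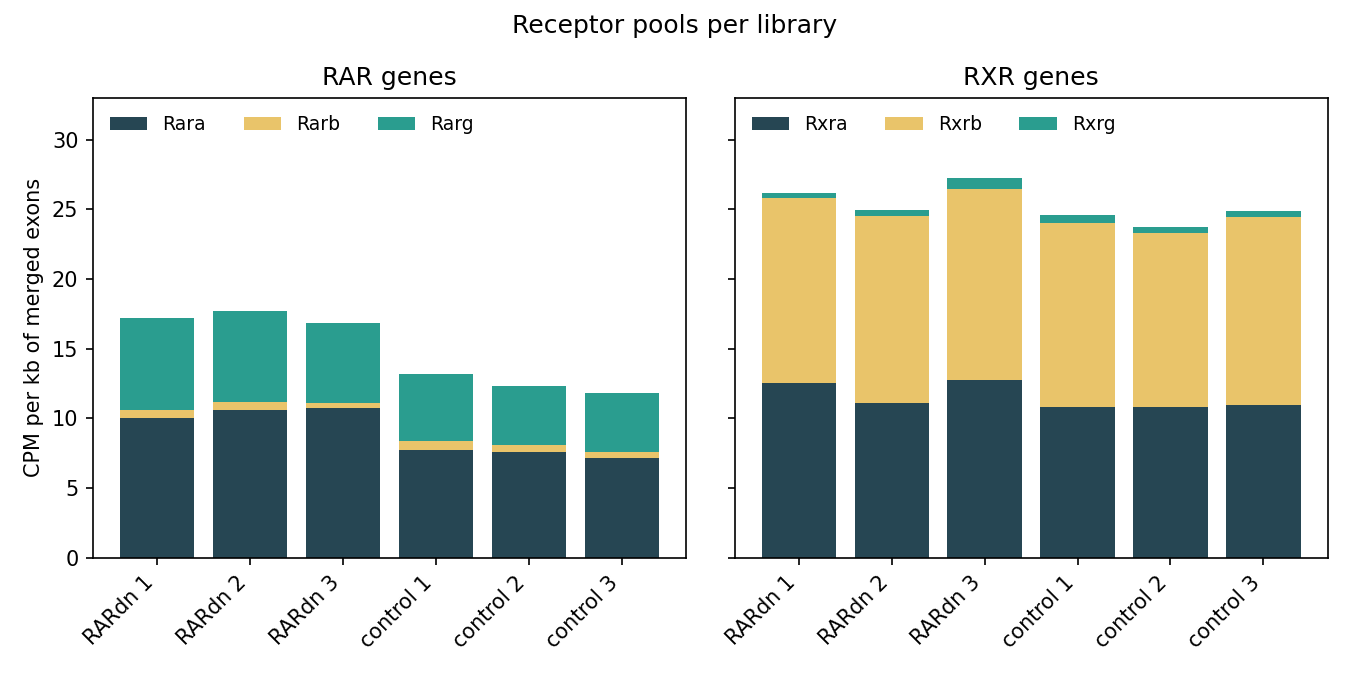
Stacked level of the 3 RAR genes (left) and the 3 RXR genes (right) in each library, in CPM per kb of merged exons, on a shared axis that starts at 0. The RAR stacks reach 16.9 to 17.7 in RARdn and 11.9 to 13.2 in control libraries, and the slivers of Rarb and Rxrg are small in each.

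Markers of other cell types also differed between the groups, and their part in the receptor differences was not tested. Over all genes tested, 13.9% were higher in every RARdn library than in every control. Of 11 mesenchyme markers, 9 had a log2 fold change above 0, with a median of 0.57. Of the 11, 7 were higher in every RARdn library than in every control, but 1, Lum, was called. They summed to 8485, 9587 and 8810 CPM in RARdn 1, 2 and 3, against 6906, 5108 and 5798 CPM in control 1, 2 and 3, mostly from the collagen genes Col1a1, Col1a2 and Col3a1. Per 1000 counts of these markers, Rara was at 5.11 ± 0.246 in RARdn and 5.59 ± 0.797 in control pancreas. On the same scale Rarg was at 3.01 ± 0.282 in RARdn and 3.21 ± 0.282 in control pancreas. The groups overlapped for both ratios, which were not tested. The summed markers were themselves higher in RARdn pancreas, so any gene with a similar rise would lose its difference on this scale. No other marker list was used in this way. The mesenchymal transcription factor genes Barx1 (log2 -0.52) and Nkx3-2 (log2 -0.13) had values below 0 and were not called. Smooth muscle markers summed to 146 to 288 CPM in RARdn and 83.9 to 122 CPM in control pancreas, with 2 of 5, Acta2 and Cnn1, called higher.

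The sums of neural and immune markers overlapped between the groups, each carried by 1 gene that ran against most of its list. Of 8 neural markers, 7 lay above 0 (median log2 0.88) and 4 were higher in every RARdn library, while Ret was called lower. Of 7 immune markers, 6 lay above 0 (median log2 0.65) and 3 were higher in every RARdn library, with the macrophage gene Csf1r called higher and C1qa at log2 -0.29. Liver transcripts marked RARdn 1 and, less so, RARdn 2. Alb was at 597, 137 and 3.19 CPM in RARdn 1, 2 and 3, against 1.36, 2.92 and 1.18 CPM in control 1, 2 and 3, and Afp at 472, 92.6 and 21.0 CPM in RARdn 1, 2 and 3, against 13.3 to 20.5 CPM in the controls. RARdn 3 was close to the controls for these genes. Without RARdn 1, the log2 fold changes were 0.54 for Rara and 0.50 for Rarg, and Rara alone was called. Of 5 mesothelium markers, none was called, and 3 lay above 0 and 2 below, with a median log2 of 0.15. Their sum was nonetheless lower in RARdn pancreas, at 398 to 630 CPM against 642 to 667 CPM in the controls. Most of that sum came from the keratin gene Krt8 (log2 -0.55), so the lower sum follows that gene and not the list. Upk3b (log2 0.44), Msln (1.25) and Lrrn4 (0.15) lay above 0, and Wt1 (-0.033) lay below. The summed acinar, endocrine, duct, endothelial, blood, gut and skeletal muscle markers overlapped between the groups. Within the 16 endocrine markers, Sst was called higher (log2 1.92, edgeR adjusted p = 0.0129) and Ins2 lower (log2 -0.85, edgeR adjusted p = 0.0431). Of the 16, 3 were higher and 2 lower in every RARdn library than in every control. Over all genes tested, 13.9% were higher and 13.7% lower in this way. The endocrine counts are close to these shares, which apply to the neural and immune counts too. No marker of these lists was at 0 in any library except the gut genes Cdx2 and Fabp2, at 0 in RARdn 3, and the muscle gene Myod1, at 0 in control 3.

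Sex was also unequal. Among the libraries with little Xist, Rara was at 43.7 to 46.9 CPM in the 3 RARdn libraries and 33.03 CPM in control 2. Rarg was at 24.6 to 28.2 CPM in these RARdn libraries and 18.0 CPM in control 2. Control 2 is a single library, so the spread of such controls is not known. With log2 Xist as a term in the edgeR fit, the log2 fold changes were 0.47 for Rara and 0.58 for Rarg, and neither was called (edgeR adjusted p = 0.385 and 0.370). The SE was 0.16 for Rara and 0.20 for Rarg, against 0.089 and 0.11 without the term. With it, 0.246% of all genes tested were called. Xist was high in control 1 and control 3 alone, so the term partly follows genotype and cannot be cleanly separated from it. Whether reads of the RARdn allele were counted under Rara or Rarg was not tested, because the sources used here give no sequence of the allele.

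The calls of Rara and Rarg rested on all libraries of the control group. Rara was not called without control 1, control 2, control 3 or RARdn 2 (edgeR adjusted p = 0.0624, 0.141, 0.110 and 0.0752). Rarg was not called without these either (0.0675, 0.201, 0.158 and 0.113) or without RARdn 1 (0.0559). The fold changes moved little, from log2 0.45 to 0.54 for Rara and from 0.47 to 0.57 for Rarg when a library was left out. Without control 2 the share of all genes called was 0.509%, and without RARdn 2 it was 0.655%. With all 6 libraries, neither gene was called when levels were scaled by total gene counts alone (edgeR adjusted p = 0.158 for Rara and 0.216 for Rarg). Their longest transcripts are 59.2% and 58.8% G and C, and with offsets for GC content and length the log2 fold changes were 0.35 and 0.38 and neither was called (edgeR adjusted p = 0.0631 and 0.0747).

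**Figure D4:**
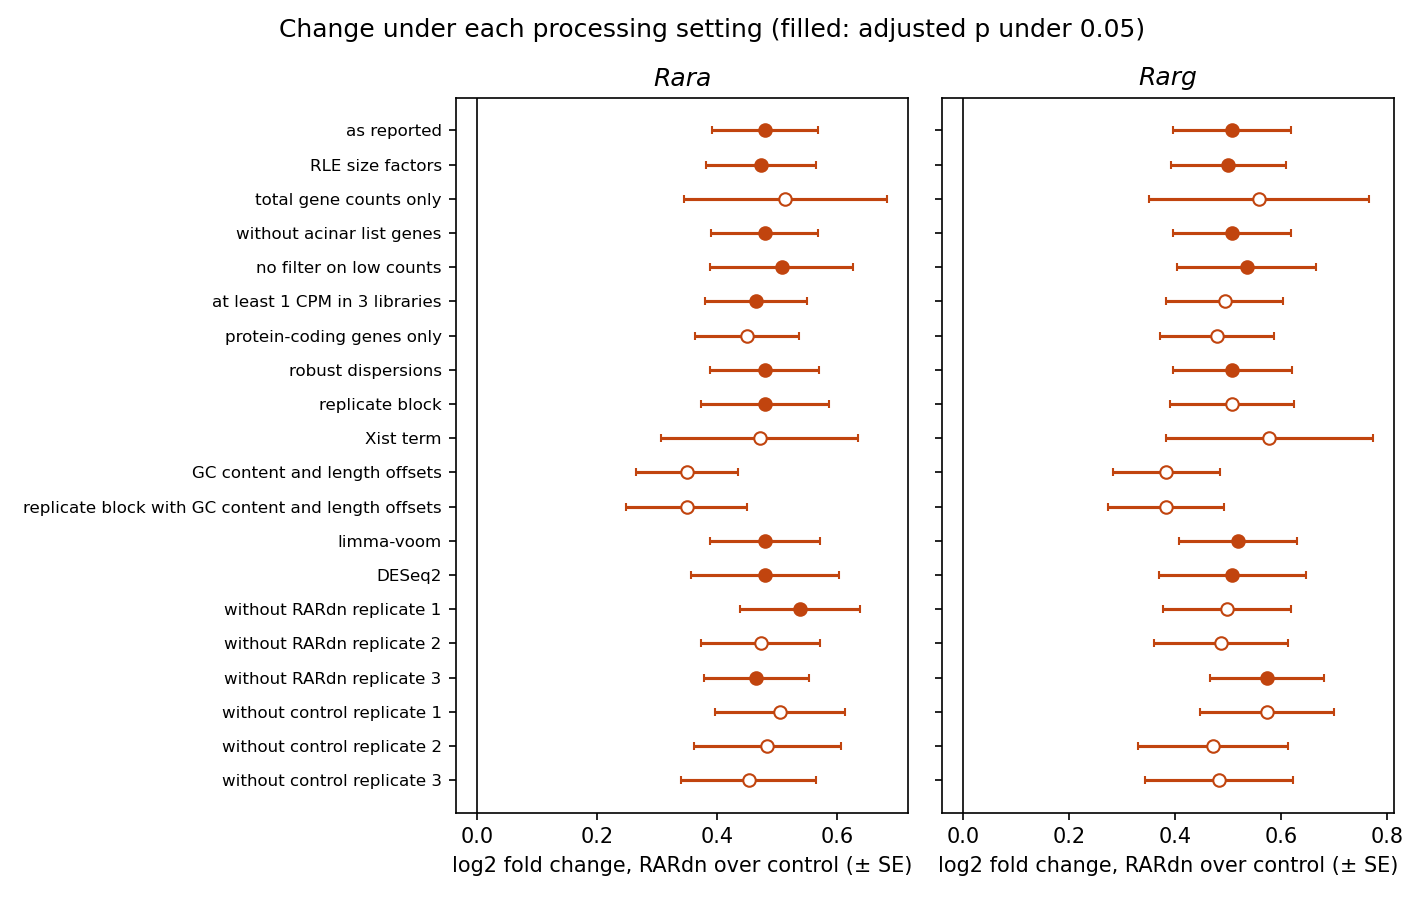
Log2 fold change of Rara and Rarg, RARdn over control, with its SE, as reported (top) and under 19 alternative settings. Filled points have an adjusted p under 0.05, which holds for 10 of 19 alternatives for Rara and 7 of 19 for Rarg, and all points lie between 0.35 and 0.58.

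Genes with a similar pattern were sought as those with the smallest root mean square difference from a receptor gene in log2 CPM, each gene centred on its own mean, over the 6 libraries and 12576 genes. The nearest to Rara were Mfsd1, a lysosomal transporter gene (difference 0.022 log2 units), Pip4k2b, a phosphoinositide kinase gene (0.038), and Lrrc8a, a subunit gene of the volume-regulated anion channel (0.042). The nearest to Rarg were Fzd2, a Wnt receptor gene (0.038), Pcbp4 (0.039) and the planar polarity gene Prickle1 (0.039). Within 0.1 log2 units lay 123 genes for Rara and 225 for Rarg. Rxra and Rxrb varied little, so 1034 and 1522 genes lay as close to them, the nearest being Map4k4, BC005537 and Wac for Rxra and Tmem259, Pias2 and Poldip2 for Rxrb. Rarb had 7 genes within that distance, led by Hfe (0.065), Epb41l4aos and Efcab7, and Rxrg had 1, Rnd2 (0.067), followed by Tm4sf5 and Ctsl. These are similarities between 6 libraries that fall into 2 groups, and carry no test.

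The other genes of the receptor pathway were read from 5 lists with 79 genes, of which 71 were tested. Of these, 4 rose and 2 fell, 8.45% against 4.02% of all genes tested, and their median log2 fold change was 0.0057, against 0.00051 for all genes. The lists were chosen with earlier results of these data known, so these shares carry no test of an excess. The counts per list at an unadjusted p under 0.05 are given without the share of all genes, so they cannot show an excess. Unadjusted p-values this low were common: that of the keratin gene Krt8, 0.0488 by edgeR, became 0.222 after adjustment.

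Among 26 tested genes that carry, make or break down retinoids, 4 rose and 1 fell by edgeR, which put 8 at an unadjusted p under 0.05, while DESeq2 called 6 and limma-voom 3. Cyp1b1, a cytochrome P450 that can oxidise retinol, was at 1.11, 1.34 and 1.09 CPM in RARdn 1, 2 and 3, against 0.104, 0.245 and 0.0463 CPM in control 1, 2 and 3 (fitted log2 3.12, SE 0.52, edgeR adjusted p = 0.0176). Its control levels rest on 4, 11 and 2 reads, so its fold change is imprecise. Aldh1a3, a retinaldehyde dehydrogenase that makes retinoic acid, was at 2.27, 1.89 and 1.71 CPM in RARdn pancreas, against 0.339, 0.691 and 0.417 CPM in control pancreas (log2 2.01, SE 0.34, edgeR adjusted p = 0.0194). Rbp4, the retinol carrier of plasma, also rose (log2 0.87, edgeR adjusted p = 0.0279). It was at 197, 189 and 132 CPM in RARdn 1, 2 and 3, against 105, 88.4 and 91.2 CPM in control 1, 2 and 3. Stra6, a membrane receptor for that carrier, was at 15.7, 40.3 and 117 CPM in RARdn 1, 2 and 3, against 9.16, 5.68 and 7.85 CPM in control 1, 2 and 3 (log2 2.93, edgeR adjusted p = 0.0418). Its RARdn libraries were far apart, and its log2 fold change was 1.89 without RARdn 3 and 3.42 without RARdn 1. With robust dispersions it was not called (edgeR adjusted p = 0.140), nor by limma-voom, which did not call Stra6l either (adjusted p = 0.104 and 0.056). Stra6l, a relative of Stra6 named after its values were seen, fell to 3.03, 6.17 and 5.10 CPM in the RARdn libraries, against 7.99, 14.01 and 17.9 CPM in the controls (log2 -1.48, SE 0.34, edgeR adjusted p = 0.0482). Rbp4 is also a liver gene, and liver transcripts were high in RARdn 1 and RARdn 2. Their part in the level of Rbp4 was not tested.

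Among the partners of RXR, edgeR called none of 12 tested genes, and neither did DESeq2 or limma-voom; 1 of the 12 had an unadjusted p under 0.05. The most abundant were the thyroid hormone receptor gene Thra (178 ± 10.5 CPM in RARdn and 187 ± 6.15 CPM in control pancreas) and the oxysterol receptor gene Nr1h2 (56.3 ± 6.85 CPM in RARdn and 53.0 ± 1.29 CPM in control pancreas). Among 12 corepressor genes none was called by edgeR, DESeq2 or limma-voom, and none had an unadjusted p under 0.05. Ncor1, whose protein binds unliganded RAR, was at 160 ± 6.20 CPM in RARdn and 178 ± 18.4 CPM in control pancreas (edgeR adjusted p = 0.495).

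Among 12 coactivator genes edgeR called none, with 3 at an unadjusted p under 0.05, while DESeq2 called 1 and limma-voom none. The most abundant were Smarca4, the ATPase of a chromatin remodeller (200 ± 38.2 CPM in RARdn and 225 ± 15.6 CPM in control pancreas), and the arginine methyltransferase gene Prmt1 (104 ± 14.8 CPM in RARdn and 120 ± 5.10 CPM in control pancreas). Of 9 other nuclear receptor genes, 5 lay above 0 and 4 below, and edgeR called 1, Nr6a1, which fell. By edgeR 4 of the 9 had an unadjusted p under 0.05, and those other than Nr6a1 lay above 0. DESeq2 called 3 of the 9 and limma-voom 1. Nr6a1, germ cell nuclear factor, was at 8.38, 6.88 and 6.16 CPM in RARdn 1, 2 and 3, against 10.6, 12.1 and 12.9 CPM in control 1, 2 and 3 (log2 -0.73, SE 0.16, edgeR adjusted p = 0.0452). Hnf4a, a receptor of endoderm, was at 69.2 ± 23.5 CPM in RARdn and 77.1 ± 7.18 CPM in control pancreas (edgeR adjusted p = 0.702).

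As for the receptors, these calls needed most of the libraries. Without RARdn 2, none of these 6 genes was called. Without control 3, none was called. Without control 1, only Stra6l was, and without control 2 only Cyp1b1, with adjusted p up to 0.176 for Nr6a1 when a library was left out (edgeR). Stra6l was also not called without RARdn 1. With the Xist term none of the 6 was called (edgeR adjusted p = 0.299 to 0.397), where 0.246% of all genes tested were.

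**Figure D5:**
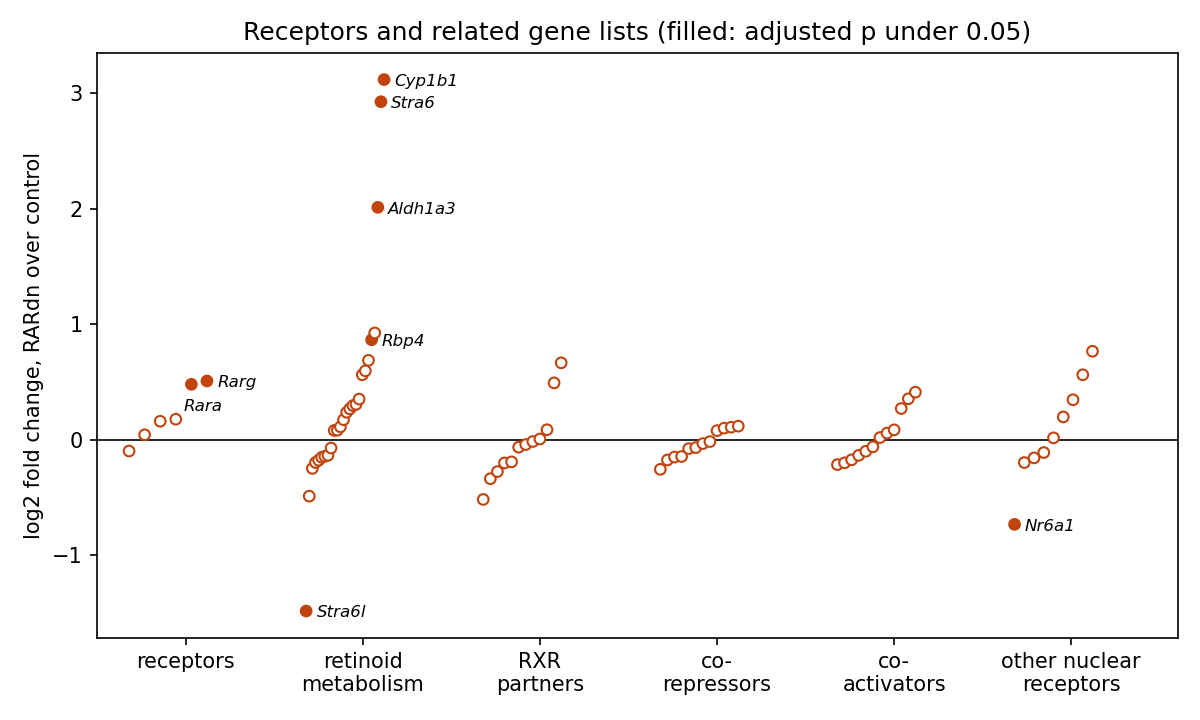
Log2 fold change, RARdn over control, of the 6 receptor genes and of the tested genes of 5 related lists, ordered by value within each list. Filled, named points have an edgeR adjusted p under 0.05: 2 receptor genes, 5 genes of retinoid metabolism and Nr6a1.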

How the data were processed

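Whole-pancreas RNA was sequenced in 3 RARdn and 3 control samples. The deposited values are raw read counts per gene symbol, 1 table per sample. The submitters' processing notes name FastQC, cutadapt, HISAT2, HTSeq, bedtools and DESeq2 and the builds mm10 and GRCm38. The sources used here name neither versions nor the annotation or strand setting. The 5 summary lines per table, 25.4% to 31.5% of reads, stayed out of library sizes and tests.

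Tests used edgeR 4.0.16 under R 4.3.3 (filterByExpr, TMM, glmQLFit and glmQLFTest, 2-sided, genotype only, Benjamini-Hochberg over 19070 genes), after a test on simulated data. Each SE was the size of the log2 fold change divided by the root of its F statistic. Positions and lengths came from GENCODE M21 (GRCm38), and promoter sequences from RefSeq. Shares used 2-sided exact permutation tests. Alternatives included DESeq2 1.42.0 and limma-voom 3.58.1. Intervals cover the spread between libraries.

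All 6 receptors were named. For each list, up to 4 called genes in order of p were named, filled up to 2 with the most abundant (1 gene so chosen is not reported here), and for each receptor the 3 most similar genes averaging 2 CPM or more, leaving out predicted, sex-linked and mitochondrial genes. The members, lists and rules were chosen with earlier results of these data known.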

Additional observations from a re-analysis of the deposited data

How the results depend on the processing

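The number of genes called was 767, and it was 474 with total gene counts only, 2346 with no filter on low counts, 217 with at least 1 CPM in 3 libraries, 111 with protein-coding genes only, 47 with the Xist term, 2302 with DESeq2 and 100 to 2980 when a library was left out (2980 without RARdn 3, 130 without RARdn 2, 343, 100 and 297 without control 1, 2 and 3). Rara kept its direction and lost its call with total gene counts only (log2 0.51), protein-coding genes only (0.45), the Xist term (0.47), GC content and length offsets (0.35) and these offsets with the replicate block (0.35). Rarg did so under the same settings (0.56, 0.48, 0.58, 0.38 and 0.38), with at least 1 CPM in 3 libraries (0.49) and with the replicate block alone (0.51). The causes were not tested, beyond the fewer genes or samples that some settings hold. When a library was left out, the log2 fold changes ran from 0.45 to 0.54 for Rara, 0.47 to 0.57 for Rarg, -0.25 to 0.10 for Rarb and -0.21 to 0.43 for Rxrg, so the sign of Rarb and Rxrg was not fixed. Rxrb, not called, was at -0.11 with GC content and length offsets, with or without the replicate block. Rxra was above 0 in all 19 alternatives and called in none.

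Leaving out a library also turned the difference in share (RARdn minus control, percentage points) for Rara, from -1.13 to 1.65, Rarg, from -0.0242 to 2.11, and Rxrg, from -0.348 to 0.454. The Rarb share stayed lower and the ratio of RAR to RXR pool higher with no division by length, with the other lengths and with each library left out. Whether replicate numbers pair the samples is not stated in the sources used here. Same-numbered libraries had deviations from their group means that correlated at 0.013, -0.014 and 0.126. Only RARdn 3 and control 3 correlated best with their own number, and such weak correlations from so few libraries cannot decide the question. The replicate block gave 817 calls. The low counts of Rarb and Rxrg limit what could be detected for them.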
